A study of Mus musculus with 14 samples.

Results

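Alb, Ahsg, Agt and Serpina3n, 4 genes for proteins that hepatocytes secrete into the blood, were measured in mouse liver. They were chosen by name: every oligonucleotide whose name or symbol denotes one of them, older symbols allowed, was taken. This gave 4 of the 271 different genes and 4 of the 284 mouse oligonucleotides on the array, 1 for each gene, and each carried an accession of its gene. Alb was listed under its older symbol Alb1, and Agt, listed as angiotensinogen, under a symbol written atg.

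The series compared the liver of 7 wild type C57BL/6 mice with that of 7 C57BL/6 mice homozygous for an allele written mthr-/-, an abbreviation that the labels do not spell out. All mice were 15 to 20 weeks old and on standard chow, and the stated cell type is primary hepatocytes. The homozygous animals had also received betaine, a methyl donor and osmolyte, at 2% (w/v) in their drinking water from 5 weeks after weaning, and in every comparison below the effects of genotype and of betaine cannot be told apart. There were 2 females among the wild type mice and 4 among the mthr-/- mice. Each mouse was measured on 1 single-colour array on which every oligonucleotide is spotted 4 times, and arrays are named here by genotype and animal number.

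The liver makes most of the protein of blood plasma. Many plasma proteins are made all the time, and when cytokines, above all interleukin-6, act on hepatocytes during inflammation, the output of some rises and that of others, albumin and fetuin-A among them, falls. This shift is called the acute phase. Alb encodes albumin, the main carrier and osmotic protein of plasma. Ahsg encodes fetuin-A, which binds calcium phosphate and restrains calcification of soft tissue. Agt encodes angiotensinogen, from which renin releases the precursor of angiotensin II, and which can rise in the acute phase. Serpina3n encodes a secreted serine protease inhibitor that rises strongly in the acute phase in mice.

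The sequences just upstream of the start of each gene are shown because they hold the regulatory letters at hand for the 4 genes and let them be set side by side. They come from RefSeq, build GRCm38.p6, and give the 250 bases before the start, 5′ to 3′ on the strand of the gene. The windows are chr5:90460620-90460869 on the plus strand for Alb, chr16:22891765-22892014 on the plus strand for Ahsg, chr8:124569707-124569956 on the minus strand for Agt and chr12:104406458-104406707 on the plus strand for Serpina3n. Capitals mark matches on either strand to 4 short motifs. The TATA box was searched as TATAAA. The CCAAT box was searched by the letters of its name. For HNF1, a transcription factor of hepatocytes, the half-site GTTAAT was used. For the STAT factors, which carry the interleukin-6 signal, the core TTCNNNGAA was used.
Alb: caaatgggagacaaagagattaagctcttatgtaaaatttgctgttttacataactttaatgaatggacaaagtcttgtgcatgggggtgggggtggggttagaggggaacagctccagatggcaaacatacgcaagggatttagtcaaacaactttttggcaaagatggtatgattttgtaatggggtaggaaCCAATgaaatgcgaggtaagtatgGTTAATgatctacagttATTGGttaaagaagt
Ahsg: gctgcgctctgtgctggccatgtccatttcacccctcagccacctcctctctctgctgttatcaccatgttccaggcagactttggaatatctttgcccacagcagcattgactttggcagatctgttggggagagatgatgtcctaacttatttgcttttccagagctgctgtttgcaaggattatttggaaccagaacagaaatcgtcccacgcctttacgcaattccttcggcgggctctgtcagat
Agt: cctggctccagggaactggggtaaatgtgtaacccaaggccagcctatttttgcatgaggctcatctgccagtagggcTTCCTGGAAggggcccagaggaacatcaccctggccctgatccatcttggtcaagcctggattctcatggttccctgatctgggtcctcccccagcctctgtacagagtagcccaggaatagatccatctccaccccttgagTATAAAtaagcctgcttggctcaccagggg
Serpina3n: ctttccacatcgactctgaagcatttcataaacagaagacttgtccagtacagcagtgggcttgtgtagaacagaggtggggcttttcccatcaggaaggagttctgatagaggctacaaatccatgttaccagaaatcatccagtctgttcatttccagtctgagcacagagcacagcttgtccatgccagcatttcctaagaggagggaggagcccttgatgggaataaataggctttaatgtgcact

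The Alb window held a CCAAT match starting 56 bases before the gene start, a GTTAAT match at 32 bases and a CCAAT match on the other strand at 15 bases. The Agt window held a TTCNNNGAA match starting 172 bases before the start and a TATAAA match at 30 bases. None of these letters occurred in the Ahsg or the Serpina3n window. Of 32851 mouse gene start windows of the same length, 12.4% held the TATA box letters, 33.8% the CCAAT box, 6.43% the HNF1 half-site and 7.02% the STAT core on at least 1 strand, and the matches did not overlap one another in the 4 windows. A match describes letters and not a bound site.

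Arrays differed in overall brightness. The sum of background-subtracted intensity over all mouse oligonucleotides lay between 14443 and 56948 in wild type and between 16029 and 82510 in mthr-/-. Without normalization between arrays, the median log2 difference of mthr-/- minus wild type was 0.81 over the 134 genes tested below. The intensities given below for single genes are not corrected for this general difference in brightness. Wild type 6 stood apart, with 70 oligonucleotides above the background limit where the others had 114 to 186. The background limit was the mean plus 2 SD of the plant control spots of the same array. It therefore differed between arrays, being highest for wild type 6 (9.81) and lowest for wild type 2 (-0.207). Wild type 2 had 139 oligonucleotides above its lower limit, at a summed intensity of 14443 beside 14892 for wild type 6. Counts above the limit, here and for single genes below, are thus not strictly comparable between arrays. By their names in the labels the arrays fall into 4 naming series. Wild type 1 and mthr-/- 1 to 4 form series A, and wild type 2 to 5 with mthr-/- 5 and 6 form series B. Wild type 6 and 7 make up series C and mthr-/- 7 alone series D. Of 9 hepatocyte markers on the array, 8 were above the limit on at least 7 arrays, Apob being the exception, and the 9, Alb among them, made up 7.2% to 41.1% of the signal in wild type and 19.2% to 33.3% in mthr-/-. Of 4 muscle markers, 3 passed, and their summed share was 2.97% on wild type 6, 1.35% on mthr-/- 6 and 0.00873% to 0.26% on the other arrays. No marker of macrophages, leukocytes or red cells was on the array. The stated tissue is liver and the stated cells are primary hepatocytes, and the part of other cells in the RNA was not tested beyond these markers. In such bulk RNA, fewer cells of a type and less RNA per cell cannot be told apart.

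Alb was the brightest mouse oligonucleotide on 11 of the 14 arrays. Its background-subtracted intensity, in the linear units of the scanner files, was 479 at the lowest, 5750 at the median and 7988 at the highest among the 7 wild type arrays. Among the 7 mthr-/- arrays it was 1974 at the lowest, 7790 at the median and 18760 at the highest. The groups overlapped: 3 mthr-/- arrays were above every wild type array, and wild type 6 was below every mthr-/- array. Alb ranked seventh on wild type 6, the third on wild type 7 and the second on mthr-/- 5.

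Ahsg was among the 7 brightest oligonucleotides on every array. Its intensity had a minimum of 482, a median of 1924 and a maximum of 3180 in wild type. In mthr-/- the minimum was 1126, the median 2324 and the maximum 6769. The ranges overlapped, with 2 mthr-/- arrays above every wild type array. On wild type 6 the intensities of Ahsg and Alb were nearly equal, 482 and 479.

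Agt was far dimmer. In wild type its intensity ran from 1.0 over a median of 40 to 111, and in mthr-/- from 1.0 over a median of 63.2 to 456. It was above the background limit on 6 of 7 arrays of each genotype, the exceptions being wild type 6 and mthr-/- 1. On mthr-/- 1 the authors had blanked the brightest of its spots, at 230, and the remaining spots read 3 and -1, a further block being a repeat that was counted once. The ranges overlapped, with 2 mthr-/- arrays above every wild type array and no wild type array below every mthr-/- array.

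Serpina3n was dim as well. Its intensity ran from 0.0 over a median of 18.8 to 58 in wild type and from 16.2 over a median of 72 to 221 in mthr-/-. It was above the limit on 6 of 7 wild type arrays, wild type 6 being the exception, and on 7 of 7 mthr-/- arrays. On wild type 6 the authors had blanked the brightest of its spots, at 27, and the remaining spots read 3, -2 and -1. Here 4 mthr-/- arrays were above every wild type array and 3 wild type arrays were below every mthr-/- array, although the ranges still overlapped. These counts, like those of the other 3 genes above, are not corrected for the brightness of the arrays. A relative of the same gene cluster, Serpina3g, was represented by its own oligonucleotide, which read between -41 and 9.25 and was above the limit on 1 array. Serpina3 genes of the mouse are close copies, so signal from other members on the Serpina3n oligonucleotide, whose sequence was not used here, was not tested.

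**Figure D1:**
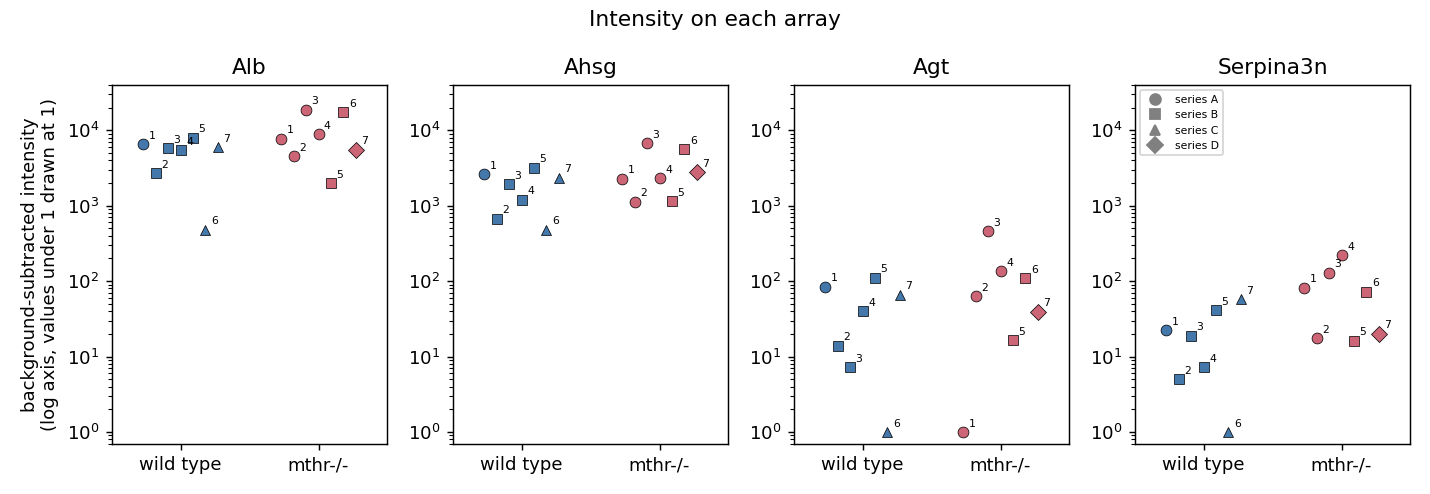
Background-subtracted intensity of the 4 genes on each of 14 arrays, on a log axis with values under 1 drawn at 1; each point is 1 mouse, numbered by animal, and the marker shape gives the naming series. Alb and Ahsg lie near the top of the scale and Agt and Serpina3n near the bottom, and wild type 6 is lowest, or level with the lowest, in every panel.

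Oligonucleotides bind labelled cDNA with different strength, so these intensities do not rank the transcripts themselves. Each gene was therefore compared across arrays only. The share of the summed signal of an array, which scales each array by its own sum, was used for this. The 4 genes together took 6.46% to 37.3% of the summed signal in wild type, with a median of 23.6%, and 19.7% to 32.5% in mthr-/-, with a median of 26.5%.

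The Alb share was 3.22% at the lowest, 18.8% at the median and 26.2% at the highest in wild type. In mthr-/- it was 12.3%, 20.3% and 24.3%. All mthr-/- arrays lay within the wild type range. The means were 17.2% ± 8.0 (SD, n = 7) and 19.7% ± 4.07 (SD, n = 7), a difference of 2.53 percentage points with an adjusted p of 0.485 (exact permutation test over 3432 splits, two-sided, adjusted by the Benjamini-Hochberg method over the 4 genes). Within series A the difference was -5.03 points and within series B -1.73 points, so the pooled direction was not found within either. Series A holds 1 wild type array, and its smallest possible p is 0.2, while that of series B is 0.0667.

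For Ahsg the share ran from 3.23% over a median of 5.45% to 10.6% in wild type and from 5.33% over 7.16% to 8.23% in mthr-/-. The mthr-/- values again lay inside the wild type range. The means of 5.94% ± 2.49 (SD, n = 7) and 6.89% ± 1.31 (SD, n = 7) differed by 0.951 points (adjusted p = 0.485, same exact permutation test). Within series A the difference was -4.36 points, and within series B it was 1.65 points.

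Agt took 0.00671% to 0.34% of the signal in wild type, with a median of 0.116%, and 0.00261% to 0.552% in mthr-/-, with a median of 0.155%. Its means of 0.148% ± 0.124 (SD, n = 7) and 0.22% ± 0.183 (SD, n = 7) differed by less than the spread within either genotype (0.0727 points, adjusted p = 0.485, same exact permutation test). Within series A the difference was -0.0484 points and within series B -0.0138 points.

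Serpina3n showed the clearest separation of the 4, without passing the adjusted threshold. Its share ran from 0.0% over a median of 0.0565% to 0.102% in wild type and from 0.0592% over 0.101% to 0.507% in mthr-/-. All 7 mthr-/- arrays were above the wild type median, 3 of them above every wild type array, and 4 wild type arrays were below every mthr-/- array. The means were 0.0595% ± 0.0392 (SD, n = 7) and 0.175% ± 0.155 (SD, n = 7), a difference of 0.115 points with p = 0.0221 and an adjusted p of 0.0886 (same exact permutation test, in which the smallest possible unadjusted p is 0.000583). The value of 0.507% came from mthr-/- 4, and without this array and wild type 6 the difference was 0.0499 points with an adjusted p of 0.329 by the exact permutation test, a comparison chosen after seeing the data. Within series A the difference was 0.15 points, from 1 wild type array at 0.0904% against mthr-/- arrays between 0.0834% and 0.507%. Within series B it was 0.0449 points, with both mthr-/- arrays at 0.101% and the highest of the 4 wild type arrays at 0.0999% (exact permutation p = 0.133).

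**Figure D2:**
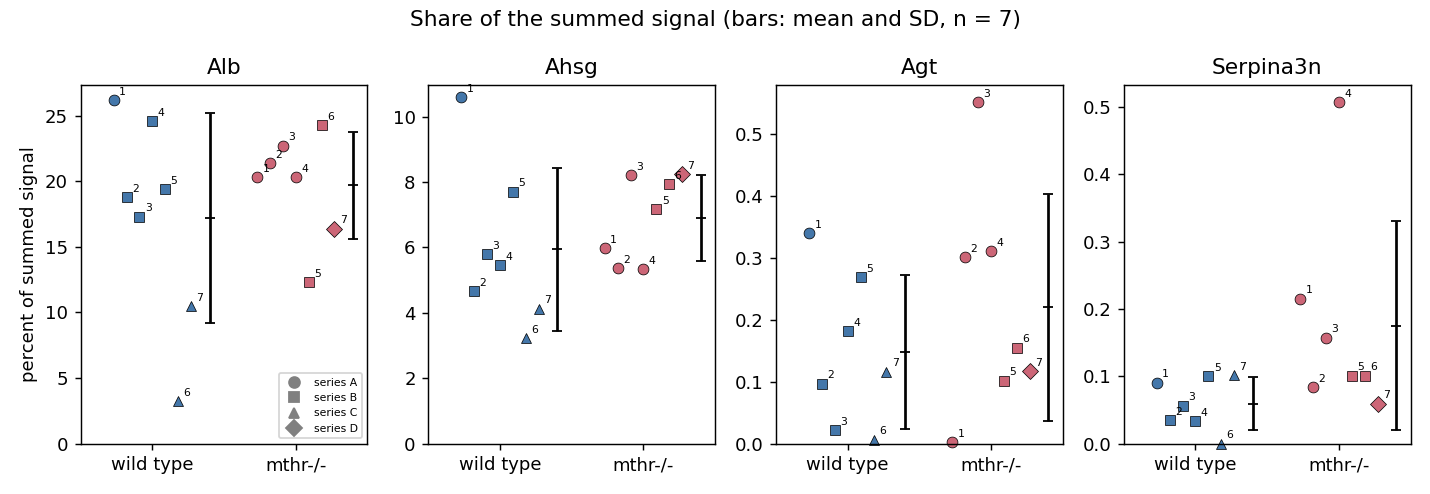
Percent of the summed background-subtracted signal taken by each gene on each array (points, 1 per mouse, numbered by animal, marker shape by naming series) with the mean and SD of each genotype (bars, n = 7). For Alb and Ahsg the mthr-/- arrays lie inside the wild type range, while 3 mthr-/- arrays are above every wild type array for Serpina3n.

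A share can be moved by the other oligonucleotides. The summed signal included 10 values below -100, the largest of which was equal in size to 10.4% of the sum of mthr-/- 1. With negative values set to 0, an alternative chosen after seeing the data, the shares on that array were 18.2% for Alb and 0.192% for Serpina3n instead of 20.3% and 0.215%, and the Serpina3n difference was 0.11 points (exact permutation test, adjusted p = 0.105). Without background subtraction the Serpina3n difference was 0.0221 points with an adjusted p of 0.785 (exact permutation test).

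Set against Alb on the same array, the signal of Serpina3n per 1000 units of Alb had a minimum of 0.0, a median of 3.26 and a maximum of 9.68 in wild type. In mthr-/- these values were 3.61, 6.89 and 24.9. The minimum was that of wild type 6, where Serpina3n was not above the background limit. For Ahsg the same quantity ran from 222 over 391 to 1000 in wild type, the maximum being wild type 6, and from 250 over 327 to 582 in mthr-/-. For Agt it ran from 1.26 over 7.39 to 13.9 in wild type and from 0.128 over 8.3 to 24.3 in mthr-/-. Ranges overlapped between the genotypes for all 3 genes, and these quotients were not tested.

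**Figure D3:**
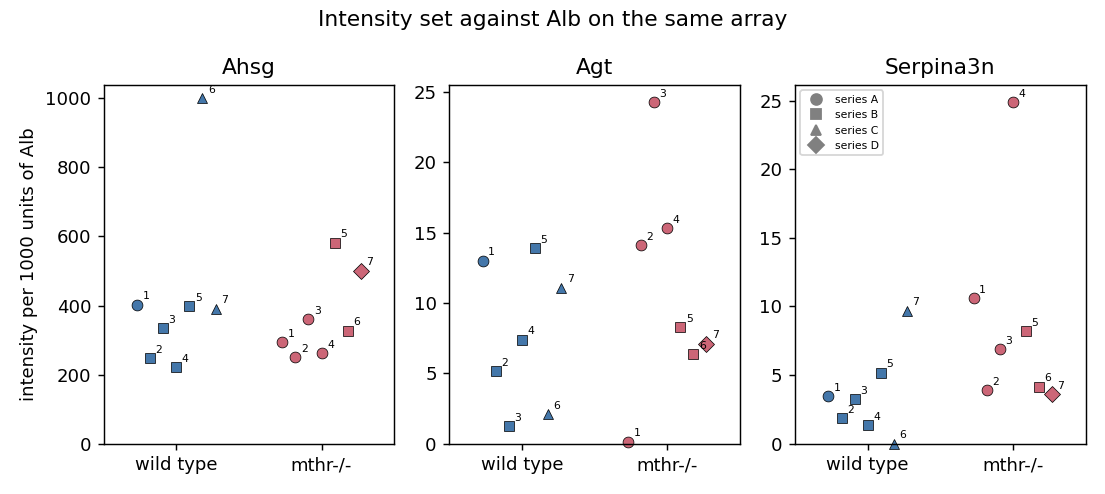
Intensity of Ahsg, Agt and Serpina3n per 1000 units of Alb intensity on the same array, 1 numbered point per mouse, marker shape by naming series. Wild type 6 is the highest point for Ahsg at 1000 and mthr-/- 4 the highest for Serpina3n at 24.9.

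The genotypes were also compared on quantile normalized log2 intensity with limma, fitted over all 134 genes that were above the limit on at least 7 arrays, with Benjamini-Hochberg adjustment over those genes. All 4 genes passed this filter. None of them was called at an adjusted p under 0.05, and neither was any other gene: 0 of 134, a background of 0.0%, with 10 genes at an unadjusted p under 0.05. Normalized Alb was 12.12 ± 0.86 (SD, n = 7) in wild type and 12.47 ± 0.27 (SD, n = 7) in mthr-/-, a log2 difference of 0.34 (SE 0.32, limma adjusted p = 0.673). This scale cannot show how Alb varied among the 11 arrays where it was brightest. On those arrays its intensity, not corrected for array brightness, spanned 6.89-fold, and its share of the summed signal ran from 16.4% to 26.2%. Quantile normalization placed it there between 12.56 and 12.59. The difference therefore came from the 3 remaining arrays, wild type 6 at 10.31, wild type 7 at 11.73 and mthr-/- 5 at 11.86. Without wild type 6 the difference was 0.04 (limma adjusted p = 0.988), and without wild type 6, mthr-/- 1 and mthr-/- 6, which takes out both arrays with high muscle markers, it was -0.0051.

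Ahsg differed by 0.34 on the log2 scale (SE 0.24, limma adjusted p = 0.584), from 10.72 ± 0.51 (SD, n = 7) to 11.06 ± 0.44 (SD, n = 7). With each array centred on its median the difference was -0.18, so its direction is not settled. Agt differed by 0.08 (SE 0.18, limma adjusted p = 0.889), from 7.21 ± 0.34 (SD, n = 7) to 7.28 ± 0.36 (SD, n = 7). With the naming series as a block the differences were -0.22 for Alb, -0.05 for Ahsg and -0.16 for Agt, all opposite in sign to the pooled values.

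Serpina3n differed by 0.23 (SE 0.13, limma adjusted p = 0.58), from 6.97 ± 0.12 (SD, n = 7) to 7.20 ± 0.32 (SD, n = 7), the 17th smallest p of 134. It kept its direction within series A, at 0.28 with 1 wild type array, and within series B, at 0.10 (SE 0.06). With the series as a block it was 0.17 (SE 0.16). Series C and D hold 1 genotype each, so the block value only combines those of series A and B. The size of the pooled difference depended on how dim signal was treated. It was 0.42 without the offset of 50 that draws dim genes together, 1.41 with plain subtraction floored at 1 (limma adjusted p = 0.592) and 1.38 in the authors' scaled values (limma adjusted p = 0.308), where the median over all genes was 0.20. Without mthr-/- 4 it was 0.10 (limma adjusted p = 0.682).

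**Figure D4:**
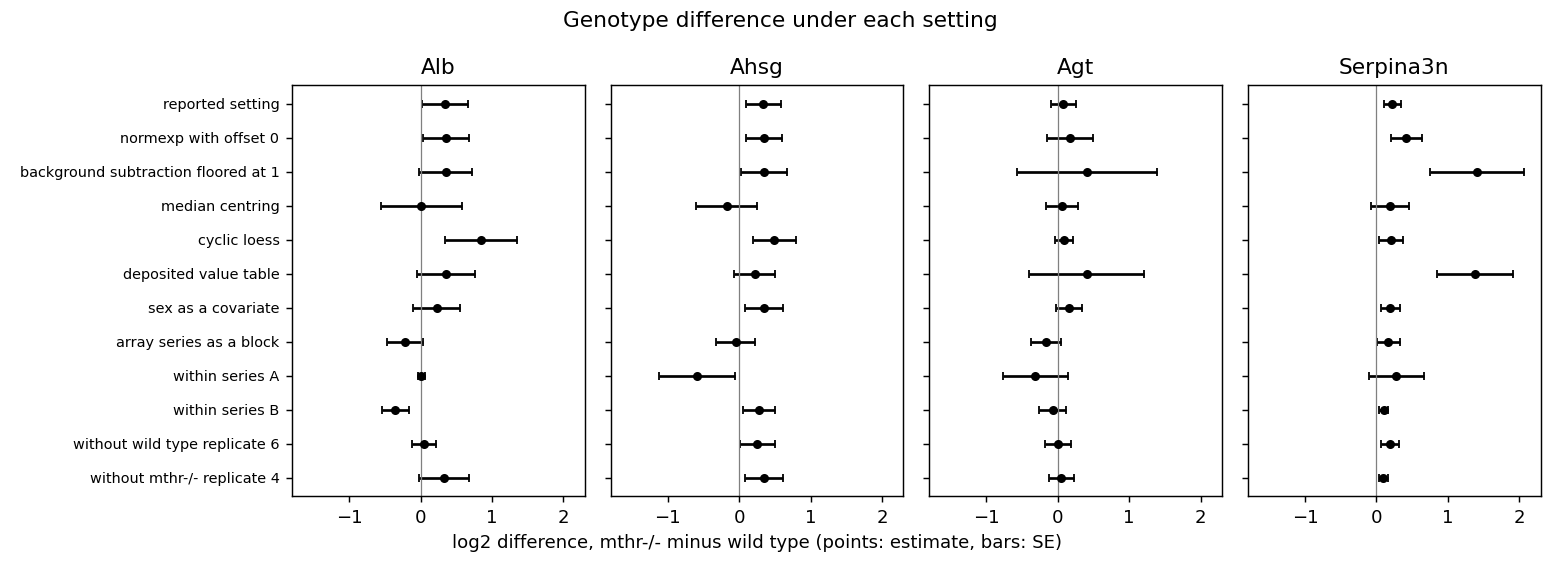
Log2 difference of mthr-/- minus wild type for each gene (points) with its SE (bars) under 12 ways of processing, grouping or leaving out arrays; the vertical line marks no difference. Serpina3n stays on the positive side in all of those drawn, and Alb, Ahsg and Agt lie on both sides.

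In the authors' deposited table of genotype medians, the log10 ratio of mthr-/- over wild type was 0.06 for Alb, 0.0516 for Ahsg, 0.301 for Agt and 0.382 for Serpina3n. As ratios, the authors' deposited table thus gave 1.15 and 1.13 for the bright pair and 2.0 and 2.41 for the dim pair. A ratio of at least 2 was reached by 17 of the 103 oligonucleotides in that table, or 16.5%. The mthr-/- medians behind the ratios of Ahsg, Agt and Serpina3n in the authors' deposited table equal those of 6 mthr-/- arrays, without mthr-/- 7. Over all 7 arrays the ratio of the medians was 1.28 for Ahsg, 1.4 for Agt and 1.97 for Serpina3n, which brings Ahsg close to Agt. For Alb, the 1 exception among the 103, the median in the authors' deposited table equals that of all 7 arrays.

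Stability between mice was described by the SD of log2 intensity within genotype. On the quantile normalized scale it was 0.64 for Alb, 0.48 for Ahsg, 0.35 for Agt and 0.24 for Serpina3n, against a median of 0.20 over the 134 tested genes. The SD of Alb stood at the 93.3rd percentile of those genes and that of Ahsg at the 85.8th. Since Alb is held at nearly 1 value on 11 arrays of this scale, its SD came from the 3 remaining arrays, and without wild type 6 it was 0.32. Without mthr-/- 4 the SD of Serpina3n was 0.11. The offset of 50 lowers the SD of dim genes: without it the SDs were 0.65, 0.50, 0.64 and 0.42 in the same order of genes, which puts Agt above Ahsg, against a median of 0.34. With median centring they were 1.11, 0.84, 0.43 and 0.52, also against a median of 0.34. On that scale Alb read 11.47 on mthr-/- 1 and 13.77 on mthr-/- 4, although its share was 20.3% on both. Median centring thus leaves differences between arrays that the share does not show. Among the tested genes, brighter oligonucleotides mostly had the larger SD, as the plot of SD against intensity shows. On the share scale no offset enters, but each array is divided by its own sum, of which Alb is a large part. There the dim genes had the larger relative spread within each genotype. The coefficient of variation of the share was 46.6% for Alb, 42.0% for Ahsg, 84.0% for Agt and 65.9% for Serpina3n in wild type. In mthr-/- it was 20.7%, 19.0%, 83.2% and 88.9%. For the intensity itself, not divided by the sum, the coefficient was larger. In the same order of genes it was 50.9%, 57.6%, 91.2% and 96.6% in wild type and 69.4%, 69.7%, 134% and 94.3% in mthr-/-. Which of the genes varied least between mice thus depended on the scale. The spots of 1 array also differed: the median SD between spots was 0.18 for Alb, 0.24 for Ahsg, 0.34 for Agt and 0.37 for Serpina3n, in log2 units. For Ahsg it reached 1.49 on mthr-/- 1, where its spots read 4458, 1837 and 566. The highest SD between spots was 1.73 for Agt (wild type 3), 1.42 for Serpina3n (wild type 2) and 0.46 for Alb (mthr-/- 3).

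**Figure D5:**
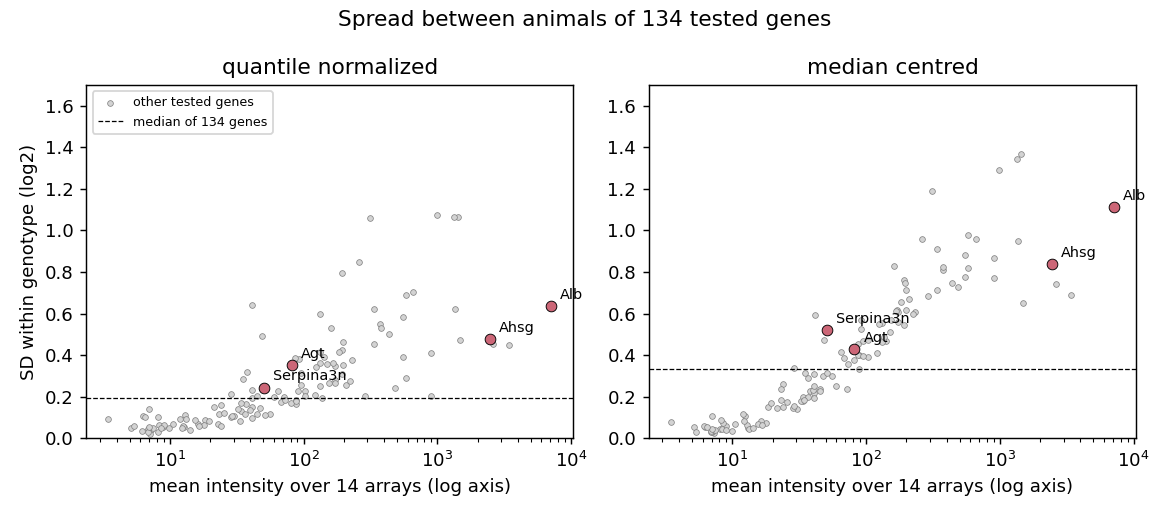
SD of log2 intensity within genotype against mean intensity over 14 arrays (log axis) for the 134 tested genes, with quantile normalization on the left and median centring on the right; the dashed line is the median of all tested genes. Alb and Ahsg lie at the bright end and above the median on both scales.

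Females and males were compared with genotype in the model. On the log2 scale the female minus male difference was 0.41 for Alb (SE 0.33), -0.03 for Ahsg (SE 0.27), -0.28 for Agt (SE 0.18) and 0.12 for Serpina3n (SE 0.13). None of the 4 was called by limma, nor was any other gene (0 of 134, 0.0%, with 3 genes at an unadjusted p under 0.05). Series A against series B, again with genotype in the model, gave differences of 0.23 for Alb (SE 0.25), 0.24 for Ahsg (SE 0.28), 0.35 for Agt (SE 0.22) and 0.18 for Serpina3n (SE 0.16). None of these was called, against 7 of 134 genes, or 5.22%, of which 6 were higher in series A (4.48%) and 1 was lower (0.746%). The lowest Alb shares, 3.22% and 10.5%, were those of the 2 arrays of series C, both wild type.

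Of 59 other plasma protein and acute phase genes that were looked for, 4 were on the array and all 4 were tested: Fn1, Apoh, Ambp and Mt1. On the log2 scale 2 were higher and 2 lower in mthr-/-, none was called by limma, and the median difference was -0.04, beside -0.004 over all 134 genes. The list did not hold every plasma protein gene on the array. Outside it, Lbp differed by -0.019 (SE 0.046, limma adjusted p = 0.889). An oligonucleotide named as similar to alpha-1-B glycoprotein differed by 0.51 (SE 0.54, limma adjusted p = 0.71). Within the list, the pair with the smallest p was Mt1 and Apoh. Mt1 encodes metallothionein 1, a metal-binding protein that rises in the acute phase. Its intensity ran from 3.23 over a median of 64.8 to 186 in wild type and from 87.8 over 316 to 1088 in mthr-/-, with overlapping ranges, and the log2 difference was 0.97 (SE 0.43, limma adjusted p = 0.58). Apoh encodes apolipoprotein H, a phospholipid-binding plasma protein. Its intensity ran from 214 over 568 to 1387 in wild type and from 13.5 over 496 to 1407 in mthr-/-, and the log2 difference was -0.62 (SE 0.36, limma adjusted p = 0.58). Of 27 regulators of the acute phase and of the renin angiotensin system, among them Il6 and Ren1, 10 were on the array and 4 were tested. Of these, 1 was higher and 3 were lower in mthr-/-, none was called, and the median difference was -0.01.

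Mouse to mouse, after the genotype means were taken off, Ahsg and Agt varied together most closely among the 4, with a Pearson r of 0.72 over 14 arrays. Alb correlated with Ahsg at 0.47 and with Agt at 0.44, the latter falling to 0.19 without wild type 6. Serpina3n stood at 0.22 with Alb, -0.15 with Ahsg and 0.06 with Agt. Without wild type 6 these values were -0.05, -0.26 and -0.05, and without wild type 6 and mthr-/- 4 they were -0.34, -0.53 and -0.39. Arrays share their normalization and differ in brightness and naming series, so these values are descriptions. Over all tested genes, Ahsg was most like Gjb2 (0.82), a gap junction gene, and Abcb11 (0.78), the bile salt export pump. Agt was most like Abcb11 (0.87) and Ivd (0.86), an enzyme of leucine breakdown. Without wild type 6 these values for Ahsg and Agt lay between 0.77 and 0.89. Alb was most like the choline dehydrogenase gene Chdh (0.79) and the methionine adenosyltransferase gene Mat1a (0.74), but without wild type 6 the values were -0.25 and 0.25. Serpina3n was most like the chaperone genes Hspe1 (0.77) and Hsp90aa1 (0.61), and without wild type 6 and mthr-/- 4 the values were 0.18 and 0.26. Several of these partners were dim. Gjb2, Abcb11, Ivd, Chdh and Hsp90aa1 had normalized wild type means between 6.77 and 7.01, where Agt under the background limit read 6.74 and 6.75. Their correlations thus rest on small shifts near the floor of the scale.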

How the data were processed

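Liver RNA was labelled with 1 dye during oligo-dT primed reverse transcription, per the labels' protocols. Per the file headers, the deposited values are linear spot intensity and local background, and the sources used here name no scanner or image software. The authors' deposited comparison gives genotype medians of scaled intensity and their log10 ratio. Spots were corrected with normexp (limma 3.58.1, R 4.3.3, offset 50). Control and blanked spots were left out, arrays were quantile normalized and spots were averaged as log2 values computed from the deposited intensity. Block 3 of mthr-/- 1 repeats block 2 and was counted once. Genes above the limit on at least 7 of 14 arrays were tested (lmFit and eBayes, two-sided, threshold 0.05). In simulated data on 134 genes, 18 of 20 genotype differences of 1 log2 unit were recovered with 0 false calls, and 19 of 20 of 2 log2 units with 3 false calls. The simulated mice varied less than the real ones did for the 4 genes without the offset (SD 0.65 for Alb, 0.50 for Ahsg, 0.64 for Agt and 0.42 for Serpina3n). No naming series difference was simulated either, so these rates do not give the power for the 4 genes. Shares were computed in Python 3.11.15. Alternatives covered background, normalization, filters, blocks and arrays left out. Named beside the 4 genes were, from the lists, the 2 tested genes of smallest p and, for each member, the 2 tested genes of highest correlation. Lbp and the alpha-1-B glycoprotein oligonucleotide were named from outside the lists. The members and lists were chosen with earlier results of these data known. 0 per-sample columns were left unmapped.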

Additional observations from a re-analysis of the deposited data

Results flagged for a closer look

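A single array lay far from the other 6 of its genotype in 4 of 16 groups of values examined, by Dixon's criterion at the 95% level, which flags about 1 in 20 groups by chance. Normalized Alb was 10.31 on wild type 6 and 11.86 on mthr-/- 5, on a log2 scale that holds the arrays where Alb is brightest between 12.56 and 12.59. An array where Alb is not brightest is easily flagged on such a scale, so the rate of 1 in 20 does not hold for normalized Alb. No Alb share of the summed signal was flagged. The values of 1 array enter both scales, so the next pair is not independent. On mthr-/- 4, normalized Serpina3n was 7.87 and its share of the summed signal 0.507%.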

How the results depend on the processing

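No alternative gave a call for any of the 4 genes on the limma genotype, sex or naming series scale. The 0 genotype calls over all genes became 1 without normalization between arrays, and the 0 sex calls did not move. Directions turned as follows for the log2 genotype difference. With the naming series as a block it was -0.22 (Alb), -0.049 (Ahsg) and -0.16 (Agt), and with wild type 6 also left out, an alternative chosen after seeing the data, -0.23, -0.049 and -0.16. Series C holds wild type arrays only, so leaving out wild type 6 could move the blocked values only through the normalization. Within series A the log2 genotype difference was -0.59 (Ahsg) and -0.31 (Agt), with the lone wild type array assumed to vary like the others, and within series B -0.36 (Alb) and -0.073 (Agt). It was -0.18 for Ahsg with median centring, -0.0051 for Alb without wild type 6, mthr-/- 1 and mthr-/- 6, and -0.018 for Agt without wild type 6 and mthr-/- 4, the last chosen after seeing the data. Leaving out each array in turn gave 0.04 to 0.46 (Alb), 0.24 to 0.48 (Ahsg), -0.020 to 0.18 (Agt) and 0.10 to 0.26 (Serpina3n). Shares of the summed signal turned within series A to -5.03 (Alb), -4.36 (Ahsg) and -0.0484 points (Agt), within series B to -1.73 (Alb) and -0.0138 points (Agt), and without wild type 6, mthr-/- 1 and mthr-/- 6 to -0.836 points (Alb). Without each array in turn the shares differed by 0.209 to 4.05 (Alb), 0.5 to 1.73 (Ahsg), 0.0173 to 0.109 (Agt) and 0.0598 to 0.134 points (Serpina3n), and the last passed the threshold without mthr-/- 2 (exact permutation test, adjusted p = 0.042) and without mthr-/- 7 (adjusted p = 0.0303), within a range of 0.0303 to 0.785 over its alternatives. The sex difference of Ahsg turned to 0.41 with median centring, 0.028 with cyclic loess and 0.27 without normalization, and ran from -0.10 to 0.10 with arrays left out. With arrays left out the series difference ran from 0.0027 (without mthr-/- 5) to 0.35 for Alb, from -0.079 (without wild type 1) to 0.47 for Ahsg, from 0.26 to 0.50 for Agt and from 0.055 (without mthr-/- 4) to 0.25 for Serpina3n. The 7 naming series calls became 4 with floored subtraction, 1 with cyclic loess and 0 with median centring, without normalization or with genes above the limit on all 14 arrays, and 1 to 13 with arrays left out. With arrays left out the SD ran from 0.32 (without wild type 6) to 0.67 for Alb and from 0.11 (without mthr-/- 4) to 0.27 for Serpina3n. The SD of Serpina3n moved to 0.52 with median centring, and without normalization the SDs moved to 0.99 (Ahsg), 0.72 (Agt) and 0.75 (Serpina3n). Without normalization the median log2 genotype difference of all tested genes was 0.81, beside 0.87 (Alb), 0.68 (Ahsg), 0.92 (Agt) and 1.06 (Serpina3n). The causes were not tested. Same-numbered mice deviated with correlations from -0.23 to 0.35. These were not set against differently numbered mice, so whether the numbers pair mice was not tested. With the animal number as a replicate block the differences were 0.34 (Alb), 0.34 (Ahsg), 0.08 (Agt) and 0.23 (Serpina3n), with 0 calls. Each animal number holds 1 array of each genotype, so this block could change the SE but not the differences. The SE was 0.33, 0.31, 0.22 and 0.13 in the same order. Each of the 4 genes has 1 oligonucleotide, so no other could be tried. Dim signal limits Agt and Serpina3n, which were under the limit on 2 and 1 of 14 arrays.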
